A study of Mus musculus with 12 samples.

Results

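RNA from primary mammary tumours of mice labelled C3_KO was compared with RNA from tumours of mice labelled WT, over every gene that passed a filter on low counts. Samples were chosen by their genotype label, which put 8 of the 12 samples of the series in the comparison, 4 C3_KO and 4 WT, and 30660 of the 56860 genes in the table were tested. All mice carried MMTV-PyMT, a transgene that expresses the polyoma virus middle T oncogene from the MMTV promoter and gives mammary tumours, and tumours were taken at 4.5 months. By the design text WT mice also had MMTV-Cre; their strain label gives only MMTV-PyMT. C3_KO mice were MMTV-Cre;C3Tdt:MMTV-PyMT, where C3Tdt is a modified C3 allele that the labels do not describe further. The other 4 samples, S1pr1_KO, carried MMTV-Cre, S1pr1fl/fl and MMTV-PyMT, and served to estimate the spread and for a comparison of leading genes. Sex and further genetic background are not given in the labels, nor is it said if each tumour is from a different mouse, so p-values measure the spread between these samples, which may be technical. MMTV is active chiefly in epithelial cells of the mammary gland. The labels do not say if the C3 allele depends on Cre, or in which cells C3 was altered.

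C3 is the protein on which the classical, lectin and alternative pathways of complement meet. Its cleavage gives C3a, which signals through C3ar1, and C3b, which coats surfaces and leads on to C5 and to the membrane attack complex. In tumours, C3 is made by epithelial cells, macrophages and fibroblasts, and complement is known there for its effects on recruited myeloid cells and on T cells.

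No gene passed an adjusted p of 0.05 between C3_KO and WT tumours (0 of 30660, edgeR quasi-likelihood test with Benjamini-Hochberg adjustment), and the smallest adjusted p was 0.227. Without adjustment, 1109 genes higher in C3_KO (3.62% of those tested) and 800 lower ones (2.61%) reached a p under 0.05. All 4 C3_KO libraries lay above all 4 WT libraries for 405 genes (1.32%) and below them for 526 (1.72%). The counts and values below are therefore descriptions, and differences in them did not pass the test. Log2 fold changes are C3_KO over WT, levels are CPM, counts scaled to the TMM-adjusted library size, and the median log2 fold change over all genes tested was 0.05. DESeq2 called 82 genes on the same counts, limma-voom 5, and edgeR 8 without S1pr1_KO library 3.

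Total counts ran from 327122244 to 484002378 in WT and from 237064382 to 424584813 in C3_KO, with the smallest in C3_KO library 4 (exact two-sided permutation test p = 0.257, where 0.0286 is the smallest p that 4 against 4 allows). The luminal epithelial genes Krt8, Krt18, Epcam and Cdh1 stood at 279.5 CPM or more in each of the 8 libraries. The 2 leading principal components of the 8 libraries held 27.6% and 19.9% of the variance. Libraries differed more within C3_KO than within WT: the median gene had a standard deviation (SD) of log2 CPM of 0.61 in C3_KO and 0.48 in WT, and 63.5% of genes had the larger SD in C3_KO. Leaving out any 1 C3_KO library gave a median SD of 0.52 to 0.60, and leaving out any 1 WT library 0.39 to 0.50.

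The targeted gene did not separate the genotypes. C3 stood at 182, 89.2, 90.3 and 43.3 CPM in WT libraries 1 to 4 and at 47.8, 74.5, 41.6 and 75.1 CPM in C3_KO libraries 1 to 4. The ranges overlapped, since WT library 4 lay within the C3_KO range and 2 of the other WT libraries lay only slightly above C3_KO libraries 2 and 4. The fitted log2 fold change was -0.76 (standard error, SE, 0.49; 95% interval -1.83 to 0.31; edgeR adjusted p = 0.765), and over the 20 alternative analyses it ran from -0.98 to -0.31 without turning, with adjusted p-values from 0.537 to 0.999. In S1pr1_KO libraries 1 to 4 C3 stood at 273, 182, 43.4 and 152 CPM. The table holds 1 count per gene and sample and the labels do not say which part of C3 the allele alters, so this level does not show whether the allele was recombined in epithelial cells, and the genotype names are used as the labels give them.

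Most other complement genes were slightly higher in C3_KO, with overlapping groups. Of 12 measured early components, 8 were higher and 4 lower, with a median log2 fold change of 0.40. C3 with the alternative and terminal components and their receptors gave 16 higher and 2 lower of 18 (median 0.31), and regulators gave 10 higher and 2 lower of 12 (median 0.41). In none of the 3 lists did a member separate the groups. Single libraries moved these medians: that of early components was 0.11 without C3_KO library 1 and 0.26 without WT library 3. That of the alternative and terminal list was 0.16 without WT library 3, 0.16 without C3_KO library 1, 0.19 without C3_KO library 4 and 0.54 without WT library 2. That of regulators was 0.70 without WT library 2. C4b, which forms the C3 convertase of the classical and lectin pathways together with C2, was measured at 548, 251, 511 and 187 CPM in WT and 268, 339, 172 and 233 CPM in C3_KO (log2 fold change -0.56, or -0.32 without WT library 1). C2 stood at 8.23, 9.91, 5.22 and 6.57 CPM in WT and 14.5, 8.38, 4.87 and 22.7 CPM in C3_KO. The protease genes of the lectin pathway, Masp1 and Masp2, had log2 fold changes of 0.49 and 0.71, and C1qa, a chain of the recognition protein C1q that macrophages make, of -0.30. Cfb and Cfd, the protease factors of the alternative pathway, had 0.59 and 1.21. Cfd is also an adipocyte gene, and its levels, at 2.76, 103, 13.9 and 4.42 CPM in WT and 97.98, 153, 9.05 and 26.9 CPM in C3_KO, spanned a range in each group far wider than the difference between them. Receptor genes C3ar1 and C5ar1 both had 0.12.

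Among regulators, Cd93 had the smallest p, with 18.02, 18.4, 8.50 and 11.1 CPM in WT and 17.4, 25.8, 32.2 and 24.9 CPM in C3_KO (log2 fold change 0.84, edgeR adjusted p = 0.765). Cd93 is also an endothelial and myeloid surface protein, and most blood endothelial genes were higher too, as given below. Clu, which encodes clusterin, an inhibitor of the membrane attack complex, stood at 545, 378, 450.3 and 233 CPM in WT and 293, 688, 2004 and 321 CPM in C3_KO, with C3_KO library 3 far above the other 7. Per length, in the deposited FPKM, C3 averaged 18.1 ± 9.41 in WT and 12.1 ± 4.54 in C3_KO (SD, n = 4), below C1qa at 109 ± 17.7 and 98.6 ± 47.4 and above C2 at 1.82 ± 0.572 and 3.58 ± 2.71.

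Leading genes were the 15 of smallest p in each direction among those whose groups did not overlap and whose average log2 CPM was at least 1. They were chosen for this contrast, so their values describe it and support nothing further. Adjusted p-values of the 30 ran from 0.227 to 0.765 (edgeR), and under the 20 alternatives none of the 30 turned its sign.

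**Figure D1:**
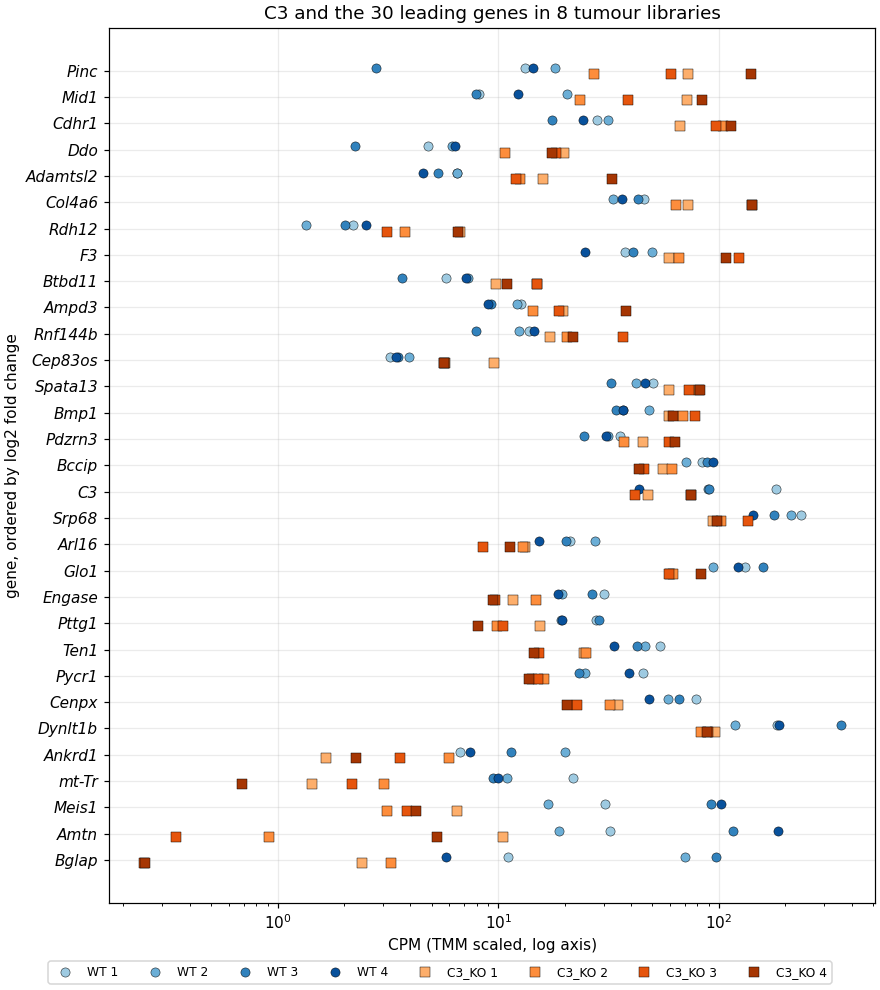
CPM on a log axis of C3 and the 30 leading genes, 1 row a gene in order of log2 fold change, with WT libraries as blue circles and C3_KO libraries as orange squares. C3_KO squares lie right of WT circles for the 15 genes from Pinc to Pdzrn3 and left of them for the 15 lower genes, while for C3 the ranges overlap between 43.3 and 75.1 CPM.

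Cdhr1, a cadherin known from photoreceptor outer segments, had the smallest p of all genes. It stood at 28.1, 31.4, 17.5 and 24.2 CPM in WT and 66.6, 104, 97.1 and 114 CPM in C3_KO, a log2 fold change of 1.91 (SE 0.27, edgeR adjusted p = 0.227). The lowest C3_KO library was above the highest WT library by more than the range of the WT group. Of the alternatives, DESeq2 gave an adjusted p of 5.04e-06, limma-voom 0.0371 and the fit without S1pr1_KO library 3 0.0221, and over all alternatives it ran up to 0.991. S1pr1_KO libraries stood at 59.04, 84.3, 40.6 and 53.3 CPM, all above WT and 1 of them within the C3_KO range.

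Several of the higher genes act on the extracellular matrix. Adamtsl2, a secreted glycoprotein that binds fibrillin and latent TGF-beta binding proteins, stood at 6.52, 6.53, 5.34 and 4.54 CPM in WT and 16.03, 12.6, 12.03 and 32.7 CPM in C3_KO. Col4a6, a chain of basement membrane collagen, stood at 45.6, 33.1, 43.2 and 36.3 CPM in WT and 72.1, 64.1, 141 and 141 CPM in C3_KO. Bmp1 encodes the protease that trims procollagens and prolysyl oxidase, and stood at 36.7, 48.03, 34.3 and 36.6 CPM in WT and 59.4, 68.7, 77.8 and 62.1 CPM in C3_KO. The log2 fold changes were 1.68 (SE 0.33), 1.40 (0.33) and 0.78 (0.18). F3, tissue factor, which starts the extrinsic clotting cascade, stood at 37.4, 49.9, 40.9 and 24.8 CPM in WT and 59.7, 66.1, 123 and 108 CPM in C3_KO, with C3_KO libraries 3 and 4 apart from 1 and 2.

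Pinc, a noncoding RNA induced in the mammary gland by pregnancy, had the largest fold among the higher genes. Its levels were 13.3, 17.99, 2.79 and 14.4 CPM in WT and 72.2, 27.1, 60.6 and 139.9 CPM in C3_KO (log2 fold change 2.63, SE 0.59). Mid1, an E3 ubiquitin ligase bound to microtubules, stood at 8.20, 20.4, 7.89 and 12.3 CPM in WT and 71.7, 23.4, 38.7 and 83.9 CPM in C3_KO, where WT library 2 and C3_KO library 2 nearly met. The other ubiquitin ligases in the group, Rnf144b and Pdzrn3, had log2 fold changes of 0.98 and 0.75. Ddo, a D-aspartate oxidase, had 1.76, Rdh12, a retinol dehydrogenase, 1.32, and Ampd3, an AMP deaminase, 1.07 (0.71 without C3_KO library 4). Spata13, a guanine nucleotide exchange factor, had 0.79 and Btbd11 1.08. Cep83os had 0.92; it is antisense to Cep83, and without stated use of strand its reads cannot be told from those of Cep83.

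Glo1, the glyoxalase that clears methylglyoxal with glutathione, had the smallest p of the 15 leading lower genes, from which pseudogenes, predicted genes and genes of low level had been left out. It stood at 131, 94.3, 158 and 122 CPM in WT and 60.2, 61.9, 59.4 and 83.2 CPM in C3_KO (log2 fold change -0.93, SE 0.21, edgeR adjusted p = 0.765), and S1pr1_KO libraries lay at 48.97, 45.2, 57.8 and 61.7 CPM. The pseudogene Glo1-ps stood at 5.13, 2.51, 5.44 and 3.87 CPM in WT and 0.192, 0.186, 0.165 and 3.65 CPM in C3_KO. Libraries 1, 2 and 3 of C3_KO were thus far below every WT library and library 4 was inside the WT range. Without C3_KO library 4 Glo1-ps passed the test, at a log2 fold change of -4.55 and an edgeR adjusted p of 0.0029, while over the alternatives its adjusted p ran up to 0.991 and its log2 fold change was -2.01 with all libraries. Glo1-ps lies outside the naming rule and was chosen after its values were seen.

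Meis1, a homeobox partner of Hox proteins, stood at 30.5, 16.8, 91.6 and 103 CPM in WT and 6.48, 3.12, 3.88 and 4.26 CPM in C3_KO. Each C3_KO library was below the lowest WT library, while the WT group itself spanned a wide range (log2 fold change -3.77, SE 0.88). Of 35 measured Hox, Meis and Pbx genes, Meis1 included, 15 were lower and 20 higher. Pttg1, securin, which holds separase inactive until anaphase, stood at 27.6, 19.2, 28.5 and 19.4 CPM in WT and 15.4, 9.86, 10.5 and 8.07 CPM in C3_KO. Ankrd1, a target gene of YAP in many cells, stood at 6.71, 20.04, 11.4 and 7.47 CPM in WT and 1.66, 5.97, 3.58 and 2.26 CPM in C3_KO. Bccip, a partner of BRCA2 and of the cell cycle inhibitor p21, had a log2 fold change of -0.71.

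Dynlt1b, a light chain of cytoplasmic dynein, stood at 183, 118, 356 and 188 CPM in WT and 95.8, 82.7, 88.9 and 88.6 CPM in C3_KO, with WT library 3 apart at the top. Dynlt1a, Dynlt1c and Dynlt1f are near-identical neighbours of it, so that reads may be shared, and had log2 fold changes of -0.99 (-0.66 without WT library 3), -1.01 and -0.82. Amtn and Bglap, genes known from enamel and bone, varied widely: Amtn stood at 32.01, 18.9, 116 and 186 CPM in WT and 10.5, 0.910, 0.345 and 5.28 CPM in C3_KO, and Bglap, which has near-identical copies, at 11.1, 69.9, 97.2 and 5.80 CPM in WT and 2.42, 3.25, 0.247 and 0.250 CPM in C3_KO. Their log2 fold changes of -4.37 and -4.90 carried SEs of 1.08 and 1.26. mt-Tr, the mitochondrial arginine tRNA, stood at 21.9, 10.9, 9.51 and 10.00 CPM in WT and 1.43, 3.05, 2.17 and 0.692 CPM in C3_KO; it is a small RNA that the exclusion by name, used for the leading genes, did not remove.

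Some copies of the ribosomal protein gene Rps2 were far lower in C3_KO, while Rps2 itself overlapped. It stood at 2168, 1370.1, 2229.7 and 1743 CPM in WT and 1306, 1969, 1106 and 565 CPM in C3_KO, where C3_KO library 2 exceeded WT libraries 2 and 4. Of 9 Rps2 pseudogenes tested, all 9 were lower in C3_KO. In 5 the groups did not overlap, where the share of lower genes without overlap over all genes tested was 1.72%. Rps2-ps4, Rps2-ps5, Rps2-ps9 and Rps2-ps11, the last being among the 5, were of very low level (average log2 CPM -1.83, -1.04, -2.09 and -1.67). The log2 fold changes of the 9 ran from -0.13 for Rps2-ps9 to -2.23 for Rps2-ps8, with Rps2 at -0.60 (-0.36 without C3_KO library 4 and -0.92 without library 2). Rps2-ps8 stood at 189, 125, 213 and 139 CPM in WT and 28.2, 40.8, 26.5 and 46.5 CPM in C3_KO, with a log2 fold change of -2.23 (SE 0.39, edgeR adjusted p = 0.636). In S1pr1_KO it stood at 20.04, 12.6, 49.6 and 18.1 CPM, also below every WT library. limma-voom called 5 genes: Cdhr1, Rps2-ps8, the predicted genes Gm12366 and Gm7432, and Npw, which encodes the neuropeptide W precursor. Npw, a gene of low level, stood at 3.69, 1.61, 2.35 and 3.48 CPM in WT and 0.245, 0.304, 0.0729 and 0.394 CPM in C3_KO. These copies were chosen after their values were seen, and how reads that match several copies were counted is not given in the sources used here.

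Leading genes were not spread evenly over chromosomes. By the RefSeq table of build GRCm38.p6, which is older than the authors' build and was used only for names and order, 8 of the 15 lower genes lie on chromosome 11 (Engase, Meis1, Cenpx, Ten1, Pttg1, Arl16, Srp68 and Pycr1) and 2 on chromosome 17, where C3 lies (Glo1 and Dynlt1b). Cdhr1, Bmp1 and Spata13, 3 of the 15 higher genes, lie on chromosome 14. Prompted by this, the 12976 protein-coding genes that reached an average log2 CPM of 1 were put in order and described in 511 windows of 50 genes, moved by 25. Of these genes 1.9% had all C3_KO libraries below all WT libraries and 0.825% had them above. This scan was made after the values were seen, and no test was made of it.

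The 6 lowest of the 511 windows made up the end of chromosome 11, from Abca5 to Metrnl. Of its 164 genes, 146 were lower in C3_KO and 18 higher, with a median log2 fold change of -0.55. In 31 of them (18.9%) the groups did not overlap, all lower. The rest of chromosome 11 had a median of -0.17 with 37 of 925 genes not overlapping and lower (4%). The region was chosen for its low values in this contrast, so its median and its share without overlap support nothing further. As the median over the 164 genes of log2 CPM minus the WT mean, WT libraries 1 to 4 stood at 0.38, 0.23, -0.12 and -0.44, and C3_KO libraries at -0.57, -0.23, -0.67 and -0.67. WT library 4 was thus lower than C3_KO library 2, and the groups overlapped. S1pr1_KO libraries stood at -0.79, -0.69, -0.18 and -0.41. Over the alternatives the median of the region ran from -0.66 to -0.41.

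**Figure D2:**
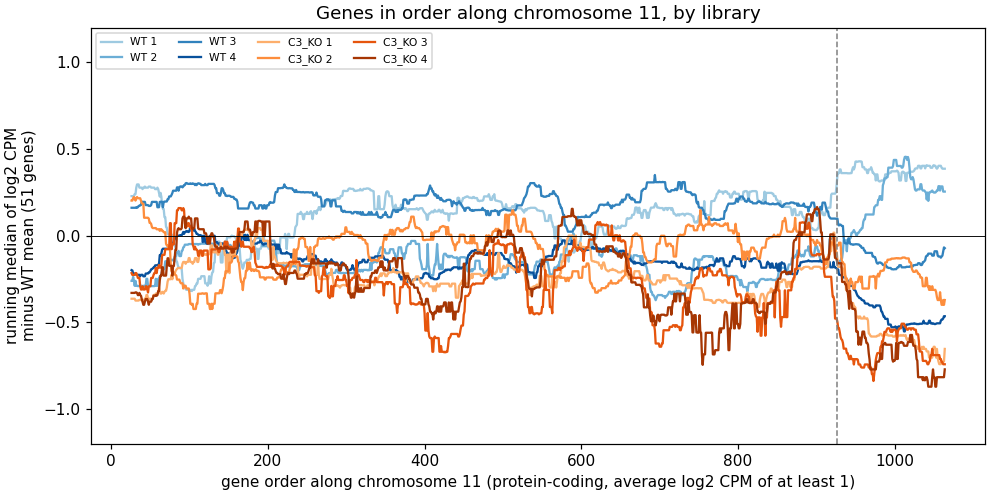
Running median over 51 genes of log2 CPM minus the WT mean, for genes in order along chromosome 11, 1 line a library (WT blue, C3_KO orange); the dashed line marks Abca5, the first of the 164 genes at the end. Right of it WT 1 and WT 2 lie above 0 while WT 4 lies with the C3_KO lines, as in the medians of 0.38, 0.23 and -0.44.

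The region holds 6 of the 15 leading lower genes. Engase, which removes N-glycans from proteins in the cytosol, stood at 30.1, 19.5, 26.6 and 18.6 CPM in WT and 11.7, 14.9, 9.62 and 9.42 CPM in C3_KO. Cenpx, a histone-fold protein of the centromere and of the Fanconi anaemia pathway, stood at 78.8, 58.9, 65.7 and 48.4 CPM in WT and 34.7, 32.1, 22.7 and 20.4 CPM in C3_KO. Ten1, a subunit of the CST complex that helps copy telomeres, stood at 54.2, 46.4, 42.4 and 33.5 CPM in WT and 24.5, 24.9, 15.4 and 14.6 CPM in C3_KO. In all of these, library 4 was the lowest or nearly the lowest of the WT libraries. Srp68, a subunit of the signal recognition particle, had a log2 fold change of -0.84, Pycr1, the last enzyme of proline synthesis, -1.16, and Arl16, a small GTPase, -0.87. The mitochondrial ribosomal genes Mrpl38, Mrps7 and Mrpl12 in the region had -1.15, -0.98 and -1.16, and Dus1l, Sap30bp and Cep131 had -0.87, -0.80 and -0.89. Grb2, the adaptor that links ErbB receptors to Ras, had -0.63, and Birc5, which encodes survivin, -1.15. Mrpl38, Dus1l, Sap30bp and Cep131 were chosen after their values were seen.

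Chromosome 17, which carries C3, was lower as a whole but less so, and chromosome 8 was about as low (median -0.17, with 478 of 692 genes lower). Of its 636 placed genes 430 were lower, with a median log2 fold change of -0.19, and in 26 (4.09%) the groups did not overlap, all lower. The 20 genes nearest to C3, 10 on each side, had a median of -0.15, with 14 lower, and 1 of them did not overlap (Gtf2f1, a subunit of the transcription factor TFIIF, -0.65). Among the 26 were Dynlt1a, Dynlt1b and Dynlt1c, Glo1, Rpl10a, Trem2 and Runx2, a transcription factor of bone and mammary cells (-0.85). So were the neighbouring salivary genes Dcpp1, Dcpp2 and Dcpp3, with log2 fold changes of -4.51, -6.33 and -4.42. Chromosome 14 lay on the other side: its median was 0.14 and in 15 of 431 genes (3.48%) all C3_KO libraries were above all WT libraries, against 2 lower.

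The fold changes also followed gene length. Across the 15879 genes that reached an average log2 CPM of 1, the Spearman correlation of log2 fold change with deposited gene length was 0.35 and with GC content of the longest transcript -0.21; these are across genes, which are not independent replicates, and share the libraries. In 5 equal groups from the shortest to the longest genes the median log2 fold change was -0.31, -0.15, -0.04, 0.05 and 0.16. The slope differed between libraries: C3_KO library 4 went from -0.68 to 0.30 and library 3 from -0.39 to 0.23 relative to the WT mean, while library 2 went from -0.09 to -0.03. Within WT, library 2 went from -0.25 to 0.06 and library 1 from 0.16 to -0.02. Several gene groups below hold mainly short or mainly long genes. Their medians are given also from a fit in which every library was corrected for gene length and GC content, a choice made after the data were seen, and the part of length in them was not otherwise tested. With that correction the median over all genes was 0.13 and no gene was called. Genes at the end of chromosome 11, a region chosen for its low values, had a median of -0.44 with it. Without it, longer genes there (at least 4470 bases) had -0.43, against 0.11 for longer genes outside chromosome 11. Shorter ones there had -0.63, against -0.15.

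**Figure D3:**
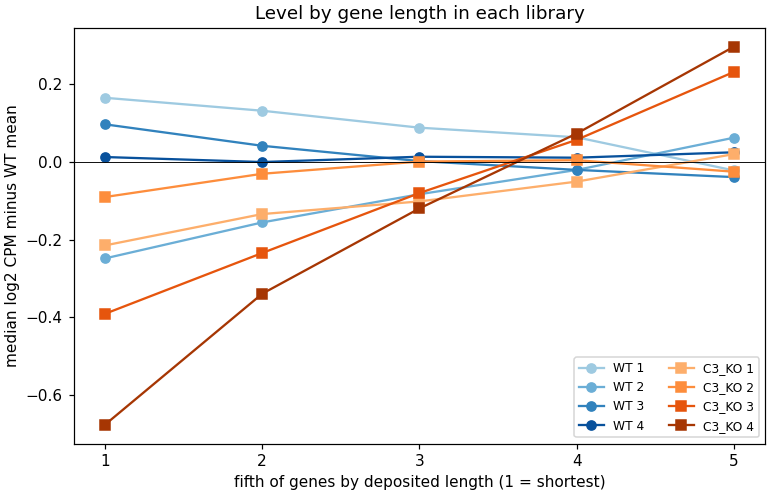
Median log2 CPM minus the WT mean in 5 groups of genes from the shortest (1) to the longest (5), 1 line a library (WT blue circles, C3_KO orange squares). C3_KO 4 has the steepest line, from -0.68 to 0.30, and C3_KO 2 is nearly flat.

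In all, 52 gene lists with 1164 different genes were described by their counts, their medians and their score, the mean log2 CPM of the tested members in each library. None had a member that passed the test. Lists were counted against the shares given above, in which 54.2% of all genes tested were higher and 45.8% lower. All 4 C3_KO scores lay above the WT range in 1 list, basement membrane, and below it in 1 list, telomere and shelterin. These lists hold the leading genes Col4a6 and Ten1, chosen in this contrast. S1pr1_KO libraries 1 to 4 scored 6.10, 6.46, 5.63 and 5.89 for basement membrane, with library 3 inside the WT range. They scored 4.31, 4.35, 4.59 and 4.54 for telomere and shelterin, all below WT. For cytosolic ribosomal proteins they scored 9.07, 8.52, 10.02 and 8.68. Their centromere and kinetochore scores were 3.26, 3.49, 3.71 and 3.77, against at least 4.11 in WT. The range of scores was wider in C3_KO than in WT in 35 of 52 lists.

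**Figure D4:**
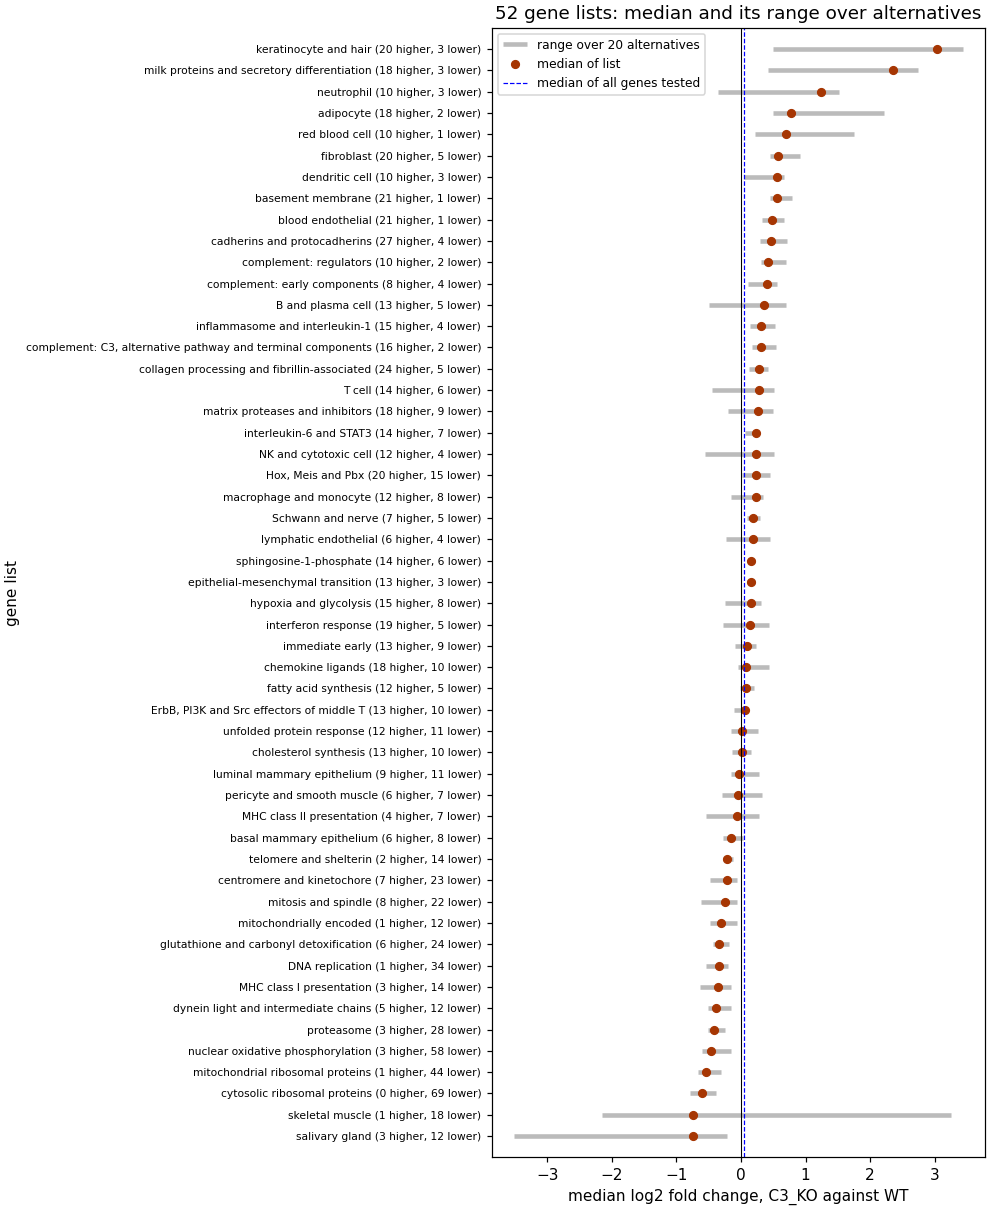
Median log2 fold change of each of the 52 gene lists (points), with the grey bar from the lowest to the highest median over 20 alternative analyses and the dashed line at the median of all genes tested, 0.05. Ribosomal and basement membrane lists keep to 1 side of 0, whereas the bars of neutrophil, T cell and skeletal muscle lists cross it.

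Genes of protein synthesis and breakdown were lower in C3_KO. All 69 of 69 cytosolic ribosomal protein genes were lower, with a median of -0.60. In 12 the groups did not overlap, where the share of lower genes without overlap over all genes tested was 1.72%. The scores were 10.14, 9.76, 10.16 and 10.01 in WT and 9.63, 9.82, 9.22 and 8.76 in C3_KO, so that C3_KO library 2 lay above WT library 2. Library 4, which also had the smallest total count and the steepest slope on gene length, was the lowest. Rpl35a stood at 835, 778, 1009.6 and 729 CPM in WT and 562, 727, 357 and 287 CPM in C3_KO, and Rps19 at 784, 699, 788 and 815 CPM in WT and 651, 538, 443 and 332 CPM in C3_KO. These genes are short, with a median length of 1972 bases against 3914 for all genes at that average level or above (log2 CPM of 1), and with the correction for length and GC content the median was -0.38. In the 2 shortest of the 5 groups by gene length, 71.4% and 65.6% of genes were lower, and 3.97% and 2.67% were lower without overlap. Many of the ribosomal protein genes also have near-identical pseudogenes.

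Mitochondrial genes were lower as well. Mitochondrial ribosomal protein genes gave 44 lower of 45 (median -0.54, corrected -0.31) with 4 not overlapping, where the share over all genes tested was 1.72%. Nuclear genes of oxidative phosphorylation gave 58 lower of 61 (median -0.46, corrected -0.15, -0.30 without C3_KO library 4). Mrps7, a protein of the small mitochondrial subunit, stood at 138, 105, 127 and 93.4 CPM in WT and 61.8, 73.6, 57.97 and 41.9 CPM in C3_KO, and Mrps9, which lies on another chromosome, had a log2 fold change of -0.48 without overlap. Uqcr10, a subunit of respiratory complex III, stood at 119.7, 84.6, 193 and 113 CPM in WT and 80.6, 73.3, 80.2 and 44.4 CPM in C3_KO. Of 13 mitochondrially encoded genes 12 were lower (median -0.31), but the scores of 10.93, 12.08, 11.65 and 11.63 in WT and 11.61, 11.56, 11.53 and 10.42 in C3_KO put only library 4 outside the WT range. This list holds the shortest genes (median 784 bases), and its median was -0.09 with the correction, -0.057 without WT library 2 and -0.15 without C3_KO library 4. Proteasome genes were lower in 28 of 31 (median -0.41, corrected -0.25); Psmb6, a catalytic subunit, stood at 201, 168, 323 and 208 CPM in WT and 145, 156, 127 and 89.6 CPM in C3_KO.

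Most cell cycle genes were lower, and C3_KO library 3 stood apart. Of 35 DNA replication genes 34 were lower (median -0.35), of 30 mitosis and spindle genes 22 (median -0.25) and of 30 centromere and kinetochore genes 23 (median -0.22). Mitosis scores were 5.50, 5.46, 5.25 and 5.22 in WT and 4.71, 4.97, 5.85 and 4.31 in C3_KO: libraries 1, 2 and 4 lay below the WT range and library 3 above it. In S1pr1_KO libraries 1 to 4 mitosis scores were 4.23, 4.67, 5.10 and 4.97, all below the WT range. DNA replication scores in S1pr1_KO were 3.86, 4.15, 4.697 and 4.50, against at least 4.701 in WT. Without C3_KO library 3 the medians of the 3 lists were -0.54, -0.62 and -0.48, and without C3_KO library 4 they were -0.20, -0.061 and -0.062. Without C3_KO library 1 that of mitosis genes was -0.15. Rfc3, a subunit of the clamp loader of replication, stood at 28.04, 25.02, 30.3 and 27.3 CPM in WT and 18.1, 21.3, 21.1 and 14.96 CPM in C3_KO. Cenps, the histone-fold partner of Cenpx, stood at 15.8, 13.6, 19.9 and 16.6 CPM in WT and 9.04, 10.4, 9.88 and 3.61 CPM in C3_KO. Tk1, the thymidine kinase of S phase, and Birc5 lie in the end of chromosome 11, and had -0.86 (-0.52 without WT library 2) and -1.15. Of 16 telomere and shelterin genes, a list that holds Ten1 and was built with its value known, 14 were lower (median -0.21, -0.13 without C3_KO library 4), with scores of 4.87, 4.82, 4.99 and 4.85 in WT and 4.60, 4.70, 4.63 and 4.38 in C3_KO; Acd, the shelterin protein TPP1, had -0.66.

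Genes of detoxification, from a list built around Glo1, gave 24 lower of 30 (median -0.34, corrected -0.19). Gsta4, a glutathione transferase for lipid aldehydes, stood at 17.5, 5.63, 20.9 and 15.6 CPM in WT and 10.3, 3.78, 5.83 and 4.47 CPM in C3_KO. Prdx2 and Sod1, which clear peroxide and superoxide, had log2 fold changes of -0.83 and -0.68.

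Matrix genes were higher. Of 22 basement membrane genes, which encode the collagen IV, laminin, nidogen and proteoglycan chains of the sheet under epithelia and around vessels, 21 were higher (median 0.56, corrected for length and GC content 0.49, 0.45 to 0.79 over the alternatives). The scores were 5.76, 5.46, 5.06 and 5.15 in WT and 5.80, 5.84, 5.98 and 6.13 in C3_KO, where WT library 1 nearly met C3_KO library 1. The list holds Col4a6, a leading gene chosen because its groups did not overlap in this same contrast. Col4a5 stood at 146, 60.6, 76.9 and 65.7 CPM in WT and 103, 143, 268 and 192 CPM in C3_KO, and Lama5 at 123, 180.2, 76.7 and 58.4 CPM in WT and 141, 207, 343 and 163 CPM in C3_KO. Lamb3, a chain of the laminin of epithelia, had a log2 fold change of 1.18, or 0.57 without C3_KO library 3. The genes of this list are long, with a median of 8155 bases.

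Of 25 fibroblast genes 20 were higher (median 0.57, corrected 0.52). Col6a3, a chain of the microfibrillar collagen VI, stood at 53.7, 88.5, 52.4 and 36.4 CPM in WT and 93.6, 161, 151 and 146 CPM in C3_KO, without overlap. Fbn1, fibrillin, to which Adamtsl2 binds, stood at 82.9, 109, 42.1 and 56.5 CPM in WT and 131, 175, 94.4 and 219 CPM in C3_KO. Fibroblast scores were 5.90, 6.88, 5.98 and 5.83 in WT and 6.74, 6.67, 6.26 and 6.80 in C3_KO, with WT library 2 above all C3_KO libraries, and without that library the median was 0.91. Genes of collagen processing and fibrillin association, a list built around Bmp1 and Adamtsl2, gave 24 higher of 29. Their median was 0.29, or 0.13 without C3_KO library 2 and 0.13 without WT library 4. Pcolce2, which enhances Bmp1, was lower, with -1.24. Cadherins and protocadherins, a list built around Cdhr1, gave 27 higher of 31 (median 0.47, corrected 0.36, 0.29 without WT library 3 and 0.71 without WT library 1). Among them the giant cadherin Fat4 was at 0.89 without overlap, or 0.52 without C3_KO library 4.

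Blood endothelial genes were higher in 21 of 22 (median 0.48, corrected 0.56). Aplnr, the apelin receptor, stood at 5.96, 15.7, 5.20 and 6.65 CPM in WT and 15.3, 21.6, 14.99 and 18.6 CPM in C3_KO, and Kdr, the receptor for VEGF, at 11.6, 14.5, 6.70 and 8.77 CPM in WT and 13.8, 15.4, 24.1 and 15.4 CPM in C3_KO. Scores were 3.68, 3.75, 2.73 and 2.94 in WT and 3.73, 3.97, 3.95 and 3.60 in C3_KO: WT libraries 3 and 4 lay below all others and WT 1 and 2 among the C3_KO libraries. Adipocyte genes were higher in 18 of 20 (median 0.77), with scores of 1.05, 3.69, 1.51 and 1.53 in WT and 3.85, 3.70, 2.39 and 2.66 in C3_KO, where WT library 2 lay beside C3_KO libraries 1 and 2, and the median was 2.22 without it and 0.50 without WT library 3. In bulk tumours, fewer cells of a type and less RNA per cell cannot be told apart, and the part of stromal content in the matrix genes was not tested.

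Epithelial marker genes showed no common direction. Of 20 luminal genes 9 were higher and 11 lower (median -0.03), and of 14 basal genes 6 and 8 (median -0.16), and the sign of each median turned under 1 or more alternatives. Trp63, the p63 factor of basal cells, stood at 15.7, 12.9, 5.94 and 28.98 CPM in WT and 38.1, 26.9, 34.1 and 28.8 CPM in C3_KO, while the contractile gene Cnn1 stood at 194, 58.9, 66.5 and 329 CPM in WT and 166, 15.6, 14.5 and 64.9 CPM in C3_KO. Grhl2, which maintains epithelial identity, was at 49.2, 47.1, 46.9 and 43.96 CPM in WT and 52.8, 64.4, 62.5 and 63.5 CPM in C3_KO, a small difference without overlap (log2 fold change 0.38). Effectors of middle T, the ErbB, PI3K and Src genes, had a median of 0.06 with 13 higher and 10 lower.

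Milk protein genes showed the largest values, and these came from 1 tumour. Csn1s1, the alpha casein, stood at 49.1, 41.4, 107 and 11.6 CPM in WT and 8.03, 84.8, 29168 and 57.6 CPM in C3_KO; Csn2, the beta casein, at 74.7, 6.45, 7.34 and 4.43 CPM in WT and 2.74, 4.54, 24191 and 67.2 CPM in C3_KO. Glycam1, a mucin-like milk protein, stood at 4.69, 2.21, 2.46 and 1.57 CPM in WT and 3.87, 1.60, 7916 and 14.4 CPM in C3_KO. C3_KO library 3 held nearly all of these counts, with library 4 next for Csn2 and Glycam1 among the C3_KO libraries. Of the 21 genes of the list 18 were higher, with a median of 2.35 that became 0.42 without C3_KO library 3. Csn1s1 then had a log2 fold change of -0.06. Only Pinc, of these genes, had all C3_KO libraries above all WT libraries. Lalba, a subunit of lactose synthase, stood at 152, 55.1, 40.7 and 42.9 CPM in WT and 273, 88.4, 1846 and 365 CPM in C3_KO.

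Start regions of 4 of these genes are shown because Pinc separated the groups and the casein genes and Glycam1 were high together in 1 tumour. They are from RefSeq, build GRCm38.p6, 250 bases before to 50 after the start, 5′ to 3′ on the gene's strand, with matches to TTCNNNGAA in capitals. This is the core of the element bound by STAT5, the factor that prolactin activates, and being a palindrome it reads the same on both strands. It was found in 5 of the 15 list genes with an entry (Csn1s1, Csn1s2a, Csn2, Glycam1 and Pinc), and in 8.3% of all 32851 start regions of 300 bases. A list gene counted if any of its start regions had a match, whereas the latter share counts single regions. These values are therefore in unlike units and are not a comparison. A match is a description of letters, not a site of binding. The regions are chr1:73407520-73407819 (minus strand), chr5:87665958-87666257 (plus), chr5:87699376-87699675 (minus) and chr15:103565032-103565331 (minus).
Pinc: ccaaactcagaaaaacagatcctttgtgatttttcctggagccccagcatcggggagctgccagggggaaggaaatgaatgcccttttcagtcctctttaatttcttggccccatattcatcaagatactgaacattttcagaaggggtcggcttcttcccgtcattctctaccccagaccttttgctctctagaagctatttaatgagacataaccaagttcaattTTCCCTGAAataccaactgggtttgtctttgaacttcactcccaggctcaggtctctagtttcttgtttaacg
Csn1s1: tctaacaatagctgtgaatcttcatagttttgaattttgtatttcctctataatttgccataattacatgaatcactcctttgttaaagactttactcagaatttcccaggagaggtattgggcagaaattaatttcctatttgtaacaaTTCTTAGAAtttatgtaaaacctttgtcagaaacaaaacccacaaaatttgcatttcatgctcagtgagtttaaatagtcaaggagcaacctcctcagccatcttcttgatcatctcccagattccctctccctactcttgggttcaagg
Csn2: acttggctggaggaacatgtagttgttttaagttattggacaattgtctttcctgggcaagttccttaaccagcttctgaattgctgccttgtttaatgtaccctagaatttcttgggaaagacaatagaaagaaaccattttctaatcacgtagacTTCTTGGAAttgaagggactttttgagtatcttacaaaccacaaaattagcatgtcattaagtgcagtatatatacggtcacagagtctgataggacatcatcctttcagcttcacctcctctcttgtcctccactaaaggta
Glycam1: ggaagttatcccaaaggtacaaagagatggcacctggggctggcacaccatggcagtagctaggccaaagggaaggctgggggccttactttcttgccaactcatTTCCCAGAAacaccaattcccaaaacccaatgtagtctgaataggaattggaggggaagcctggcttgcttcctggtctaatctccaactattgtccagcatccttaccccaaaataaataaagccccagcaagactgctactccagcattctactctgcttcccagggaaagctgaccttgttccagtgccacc

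Keratinocyte and hair genes followed the same library. Of 23, 20 were higher, with a median of 3.03, or 0.50 without C3_KO library 3. Krt10, a keratin of differentiated epidermis, stood at 4.38, 8.83, 3.13 and 7.25 CPM in WT and 8.32, 7.31, 178 and 38.3 CPM in C3_KO, and Flg, filaggrin, at 3.33, 0.939, 0.169 and 1.11 CPM in WT and 1.55, 1.17, 127 and 16.1 CPM in C3_KO. C3_KO library 4 was second highest for both. Neutrophil genes had a median of 1.23, or -0.35 without library 3: S100a9, an alarmin of neutrophils, stood at 0.976, 2.03, 1.68 and 1.88 CPM in WT and 0.789, 1.14, 44.9 and 0.298 CPM in C3_KO. Cxcl2 and Il1b, signals that draw and activate neutrophils, showed the same library, with Cxcl2 at 0.261, 0.459, 0.185 and 0.317 CPM in WT and 0.192, 0.0845, 13.02 and 0.168 CPM in C3_KO, and Il1b at 2.25, 4.05, 0.856 and 2.59 CPM in WT and 3.07, 1.30, 36.4 and 4.30 CPM in C3_KO. Mmp13, a collagenase, was high in C3_KO libraries 2 and 3, at 1.60, 10.1, 38.3 and 2.31 CPM against 1.47, 1.99, 1.03 and 0.806 CPM in WT.

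Lymphocyte and interferon genes differed within C3_KO more than between the groups. Scores of T cell genes were 0.42, 0.92, 0.02 and 0.82 in WT and 1.73, -0.10, -0.08 and 0.64 in C3_KO, and of B and plasma cell genes -0.42, -0.04, 0.18 and -0.64 in WT and 1.44, -1.27, -1.19 and -0.21 in C3_KO. C3_KO library 1 was the highest of all 8 and libraries 2 and 3 the lowest in both lists. Medians of 0.27 for T cell, 0.23 for NK and cytotoxic cell and 0.36 for B and plasma cell genes became -0.45, -0.56 and -0.49 without C3_KO library 1, and 0.51, 0.50 and 0.63 without C3_KO library 2. Without WT library 3 they were 0.060, 0.045 and 0.70. Interferon response scores were 5.26, 5.44, 4.75 and 5.77 in WT and 6.31, 3.55, 4.32 and 6.05 in C3_KO, with C3_KO libraries 1 and 4 above the WT range and 2 and 3 below it. Oas2, an antiviral synthetase, spanned 149, 6.71, 23.5 and 201 CPM in C3_KO and 33.6, 51.2, 19.2 and 101 CPM in WT. Foxp3, the factor of regulatory T cells, was lower by a narrow gap, at 16.1, 16.9, 15.6 and 16.1 CPM in WT and 14.7, 15.5, 9.78 and 10.9 CPM in C3_KO (log2 fold change -0.35). In the T cell list 14 of 20 genes were higher and 6 lower, and Foxp3 was the 1 lower gene without overlap. The share of such lower genes over all genes tested was 1.72%.

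Macrophage and monocyte genes gave 12 higher and 8 lower of 20 (median 0.23). That median was -0.15 without C3_KO library 1, 0.069 without C3_KO library 4 and 0.10 without WT library 3. Trem2, a lipid receptor of tumour macrophages, also had a narrow gap, at 8.83, 9.44, 10.7 and 9.18 CPM in WT and 7.43, 6.32, 3.06 and 8.71 CPM in C3_KO. MHC class I genes were lower in 14 of 17 (median -0.36, -0.17 without C3_KO library 3, -0.63 without C3_KO library 1 and -0.15 corrected for length and GC content), with scores of 7.83, 7.44, 7.70 and 7.98 in WT and 7.97, 6.93, 6.67 and 7.43 in C3_KO. Psmb8, a subunit of the immunoproteasome that makes peptides for class I, stood at 221, 169, 245 and 253 CPM in WT and 235, 87.8, 44.7 and 113 CPM in C3_KO, and H2-K1, a class I heavy chain, at 2401, 1151, 1638 and 3106 CPM in WT and 2427, 527, 572 and 1689 CPM in C3_KO. C3_KO library 1 was at the WT level in both and libraries 2 and 3 were the lowest. Of 19 inflammasome and interleukin-1 genes 15 were higher and 4 lower (median 0.32, or 0.14 without C3_KO library 1 and 0.53 without C3_KO library 2). Their scores were 2.70, 2.92, 2.65 and 2.95 in WT and 3.36, 2.08, 3.36 and 3.32 in C3_KO. In this list Pycard, the adaptor of inflammasomes, had -1.16 and Nlrp3, their sensor, 1.24, which was 0.62 without C3_KO library 3.

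**Figure D5:**
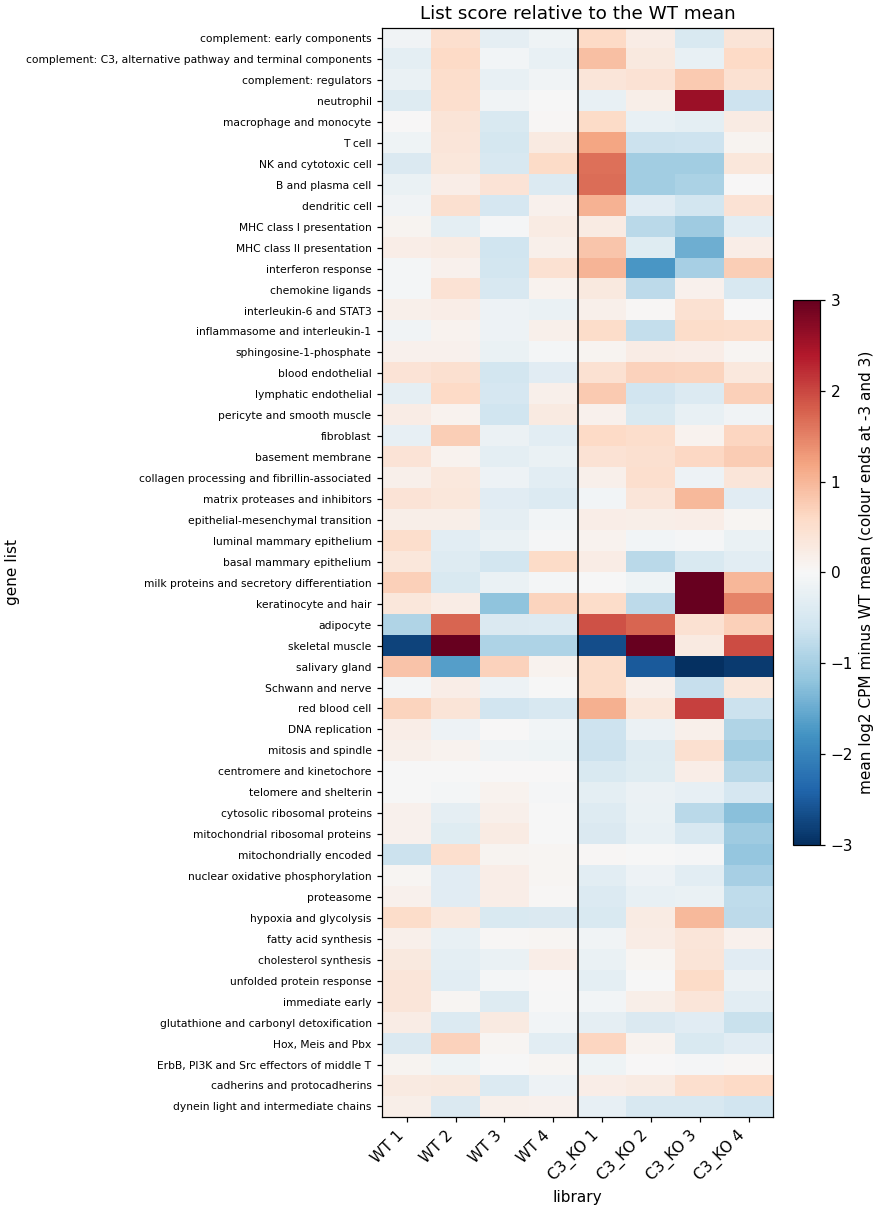
Score of each gene list (mean log2 CPM) minus its WT mean, 1 row a list and 1 column a library, with colour ending at -3 and 3. The C3_KO columns differ from each other: lymphocyte lists are red in C3_KO 1, milk and keratinocyte lists in C3_KO 3, and ribosomal and mitochondrial lists are bluest in C3_KO 4.

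Genes of tissues beside the tumour varied by library. Skeletal muscle scores were -0.22, 7.18, 1.62 and 1.62 in WT and -0.12, 5.94, 2.81 and 4.52 in C3_KO, and the median of -0.75 became 3.26 without WT library 2, -2.15 without C3_KO library 2, -0.36 without C3_KO library 1 and -0.45 without C3_KO library 3. Myh7, the slow myosin heavy chain, stood at 98.4 CPM in WT library 2 and at no more than 0.122 CPM in the other 7. Salivary gland scores were 2.69, 0.18, 2.53 and 1.96 in WT and 2.39, -0.69, -1.25 and -1.02 in C3_KO, with C3_KO libraries 2, 3 and 4 below every WT library. The median of -0.75 became -3.51 without C3_KO library 1, -0.22 without WT library 1 and -1.15 without WT library 2. Dcpp1, Dcpp2 and Dcpp3, near-identical salivary genes side by side on the chromosome that carries C3, did not overlap between the groups. Dcpp2 stood at 17.3, 6.95, 38.7 and 13.5 CPM in WT and 0.619, 0.206, 0.00950 and 0.103 CPM in C3_KO. Red blood cell genes gave 10 higher of 11 (median 0.70, 0.22 without C3_KO library 3 and 1.74 without WT library 1). The part of such tissue in other differences was not tested.

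Genes at least 8 times higher in 1 library than in any of the other 7, at 5 CPM or more, numbered 58 in C3_KO library 3 and 1 to 8 in each of the other libraries. In C3_KO library 3 they were led by Csn1s1, Csn2, Csn1s2a, Glycam1 and Lao1. C3_KO library 1 was led by Mucl2 (273.7 CPM against at most 12.0) and Scgb1b27, secreted proteins of glands, library 2 by Galnt9 (102.5 against 8.17) and Sez6, and library 4 by Aldh3a1 (31.3 against 2.90), an aldehyde dehydrogenase. WT library 1 was led by Gpx2 (81.7 against 6.19), a glutathione peroxidase, and Calca, and WT library 2 by Myh7 and Trdn, both of muscle.

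Metabolic lists gave medians near that of all genes: hypoxia and glycolysis 0.15, fatty acid synthesis 0.07, cholesterol synthesis 0.02, the unfolded protein response 0.02 and immediate early genes 0.10. The first of these was -0.24 without C3_KO library 3. Within fatty acid synthesis, Scd1, the desaturase, stood at 570.1, 375, 263 and 429.5 CPM in WT and 527, 847, 1419 and 723 CPM in C3_KO, and Acaca, acetyl-CoA carboxylase, at 63.6, 48.8, 45.7 and 49.1 CPM in WT and 58.8, 65.98, 222 and 85.2 CPM in C3_KO. Both were highest in C3_KO library 3. Thrsp, a regulator of lipid synthesis, was lower (-0.99, or -0.65 without WT library 4). The sphingosine-1-phosphate genes, to which S1pr1 belongs, gave 14 higher and 6 lower (median 0.15).

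Against the S1pr1_KO tumours no gene passed the test either (0 of 30660, edgeR; smallest adjusted p 0.358; 1042 genes, 3.4%, at an unadjusted p under 0.05). Of the 30 leading genes, 5 of the higher (Cdhr1, Adamtsl2, F3, Rdh12 and Mid1) and 2 of the lower (Meis1 and Pycr1) had an unadjusted p under 0.05 between C3_KO and S1pr1_KO. This comparison shares the C3_KO libraries by which the 30 were chosen, so the count is no independent support. Mid1 stood at 4.92, 31.9, 8.51 and 13.7 CPM in S1pr1_KO, overlapping WT, whereas Col4a6 stood at 99.9, 134, 58.4 and 145 CPM and Glo1 at 48.97, 45.2, 57.8 and 61.7 CPM, both outside the WT range.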

How the data were processed

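RNA from 12 tumours was sequenced from Illumina libraries, per the labels' protocols. The authors deposited whole-number counts per gene, FPKM values and a gene length. Per the submitters' processing notes, StringTie and build GRCm39 (mm39) were named; the sources used here give no aligner, counting program or use of strand. Among counts of 1 to 50, 60.7 to 64.0% were even, more than the share of odd ones.

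Counts were filtered (filterByExpr), scaled by TMM and tested in edgeR 4.0.16 (quasi-likelihood, robust, 1 mean per genotype, 12 libraries, 9 residual degrees of freedom; common coefficient of variation 0.564), with Benjamini-Hochberg adjustment over 30660 genes. Scripts were tested on simulated data. Scores used a prior count of 2. Alternatives used DESeq2 1.42.0, limma 3.58.1, other filters and scalings, libraries left out, and a correction for length and GC content. Genes named were C3, 15 leading genes in each direction, up to 4 of smallest p per list with members needed for a role, and up to 5 per library standing out; predicted genes and pseudogenes were left out of the leading genes. Members and lists were chosen with earlier results of these data known. Gene order and start regions came from GRCm38 annotation matched by symbol (27975 tested genes had a match).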

Additional observations from a re-analysis of the deposited data

Results flagged for a closer look

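A sample was looked at again where, within its group of 4, its gap to the nearest sample, as a share of the group's range, exceeded Dixon's 95% critical value for 4 samples. Of 398 groups examined over the named genes and the list scores, 27 met this. For unselected, independent groups chance alone would give about 1 in 20, or 19.9. Many of the genes were chosen by their values and the groups share libraries, so this is no test against chance. These values are not spread evenly over the libraries: within each genotype, the library listed first below holds the most. They are given as values only.

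In WT library 2, log2 CPM stood apart for Psmd7 (6.93), Cd36 (4.14), Mb (5.88), Prdx2 (8.17) and Myh7 (6.62), as did the scores of complement regulators (2.70), fibroblast genes (6.88) and dynein light and intermediate chains (5.44). WT library 3 stood apart for Pinc (1.48), Il18r1 (2.28) and the MHC class II score (4.10), and WT library 1 for mt-Tr (4.45).

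In C3_KO library 4, Glo1 (6.38), Glo1-ps (1.87), Uqcr10 (5.47), Psmd7 (6.53), Cenps (1.85), Calca (1.82), Fat4 (3.06) and the score of mitochondrially encoded genes (10.42) stood apart. C3_KO library 3 did for Cxcl2 (3.70) and Csn1s2b (8.22), C3_KO library 2 for Il18r1 (-0.88) and the inflammasome and interleukin-1 score (2.08), and C3_KO library 1 for Cep83os (3.26), Grhl2 (5.72) and the salivary gland score (2.39).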

How the results depend on the processing

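The count of genes called was 0 in 16 of the 20 alternatives as in the reported analysis. DESeq2 called 82 (33 higher, 49 lower), including 12 of the 30 leading genes, and limma-voom with quality weights 5; leaving out 1 library at a time gave 0 to 8, with 3 without C3_KO replicate 4 and 8 without S1pr1_KO replicate 3. The cause was not tested. C3 kept its direction and stayed short of the threshold throughout. Of 147 gene results, 8 turned their sign under an alternative. Without C3_KO replicate 3, S100a9 became -1.14, Cxcl2 -1.04, Cxcl5 -1.82 and Csn1s1 -0.060, and with the 3 milk- or salivary-rich libraries left out -1.12, -1.01, -1.79 and -0.020. limma-voom gave S100a9 -0.44, Cxcl5 -1.21 and Ttn 0.75. Without WT replicate 2, Myh7 became 0.28, Trdn 1.10 and Ttn 3.04, and without C3_KO replicate 1, Scgb1b27 became -0.33. The other end of the leave-one-out range was 3.24 for S100a9, 3.86 for Cxcl2, 3.44 for Cxcl5, 7.74 for Csn1s1, -8.72 for Myh7, -2.88 for Trdn, 3.02 for Scgb1b27 and -1.54 for Ttn. List medians turned their sign in 20 of 52 lists. No paired analysis was possible because the labels give the libraries no shared replicate number, and numbers here follow accession order. With 4 libraries a group and a typical standard error of 0.31 for genes of an average log2 CPM of at least 1, small differences were not detectable at this spread.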
